A study of Mus musculus with 9 samples.

Results

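The genes described here are 32 transcripts typical of the fibroblasts that build the meninges, the membranes around the brain: collagen chains, the small proteoglycans that coat collagen fibrils, other secreted matrix proteins, retinoid genes, transcription factors and a few meningeal transport and signalling genes. They were taken from a list of symbols with the condition of a mean of at least 10 normalized counts over all 9 libraries, and 32 of 32 listed genes met it, out of 17036 such genes in a table of 57180. The tissue was hippocampus of 11-day-old C57BL6 mice of both sexes, profiled by RNA-seq of total RNA. The 4 knockout libraries (cKO, 3 male and 1 female) came from mice lacking Slc38a3, the gene of the glutamine transporter SNAT3, selectively in endothelial cells, and the 5 wild-type libraries (WT, 1 male and 4 female) from mice labelled wt. The labels name no drug or other treatment. Neither the Cre driver nor the litters were given in the sources available, so a p-value speaks of the spread among these libraries, which may share litters. Fibroblasts are not the cell type named for the deletion, and whether they keep Slc38a3 was not tested.

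Meningeal fibroblasts lie in the dura, the arachnoid and the pia, and the pia follows the brain surface into the hippocampal fissure and along entering vessels. They secrete fibrillar collagens and proteoglycans, and cells of the arachnoid and pia also make retinoic acid and release prostaglandin D synthase into the cerebrospinal fluid. A hippocampus lifted from the brain can carry a varying amount of this membrane with it, and in bulk RNA fewer cells of a type and less RNA per cell cannot be told apart.

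Values are normalized counts, that is reads per gene scaled between libraries by the authors, and recovered reads ran from 30803135 to 34034530 per library. Differences are log2 fold changes, cKO minus WT, on log2(normalized count + 1) with sex as a term (limma-trend). A gene passed at a Benjamini-Hochberg adjusted p under 0.05 over all 17036 genes. The targeted gene Slc38a3 was at 308 to 405 normalized counts in the cKO libraries and 1804 to 3514 in WT, which matched the genotype labels. Hippocampal tissue was present throughout, with the dentate granule cell gene Prox1 at 5918 to 7188 normalized counts, and the thalamic marker Tcf7l2 was at 185 to 303. A list of 10 hippocampal neuron genes summed to 53280 to 59825 in cKO, lowest in cKO replicate 1, and to 59457 to 64807 in WT. A list of 8 thalamus genes summed to 8347 to 9340 in cKO and 8752 to 9017 in WT, with Prkcd at 638 to 1287 and Calb2 at 2133 to 2886. No gene of either list passed.

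Most of the 32 genes had somewhat higher values in cKO, by 0.36 to 0.55 on the log2 scale for the collagen genes Col1a1, Col1a2, Col3a1 and Col6a2 (0.12 to 0.36 without WT replicate 1) and by 1.25 for the prostaglandin D synthase gene Ptgds (0.44 without that library), while the proteoglycan gene Bgn had lower values, by -0.29. Most of these genes also varied widely between libraries of 1 genotype. Groups overlapped for 30 of the 32, with 1 apart and higher (2.86% of all genes) and 1 apart and lower (3.72% of all genes). That was near the shares of all genes. None of the 32 genes passed the test between cKO and WT, 0 higher (0.123% of all genes tested passed in that direction) and 0 lower (0.223% of all genes). At an unadjusted p under 0.05 there were 9 higher (4.94% of all genes) and 1 lower (6.4% of all genes). edgeR on the recovered reads also passed 0 and 0, and DESeq2 passed 1 higher (0.399% of all genes), Col6a2, and 1 lower (0.775% of all genes), Bgn. The fold change was above 0 for 25 of the 32 genes and the median was 0.19, against 48.8% of all genes above 0 and a median of -0.0034. That median was 0.07 without WT replicate 1, the only WT male, and 0.33 without cKO replicate 2, the only cKO female. In those fits the genotypes are compared within the other sex only. Without cKO replicate 1 and WT replicate 3, the libraries with the highest mean level of these genes, 1 passed higher, Col3a1 (0.58, adjusted p = 0.0290), and 0 passed lower, where 0.047% and 0.0704% of all genes passed.

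The counts at an unadjusted p under 0.05 moved with the libraries compared. In females only there were 2 higher and 2 lower (5.64% and 9.26% of all genes), and none passed after adjustment (0.0235% higher and 0.0411% lower over all genes). In males only there were 13 higher and 1 lower (3.13% and 2.78% of all genes), and none passed (0.00587% higher and 0.0117% lower). Without WT replicate 3 there were 13 higher and 2 lower (4.92% and 6.56% of all genes), of which 3 passed higher and 0 lower (0.123% and 0.158% of all genes). Without cKO replicate 1 and WT replicate 3 the numbers were 12 and 3 (4.43% and 6.08%), with DESeq2 7 and 2 (3.85% and 5.49%) and without the sex term 11 and 3 (6.95% and 8.61%).

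**Figure D1:**
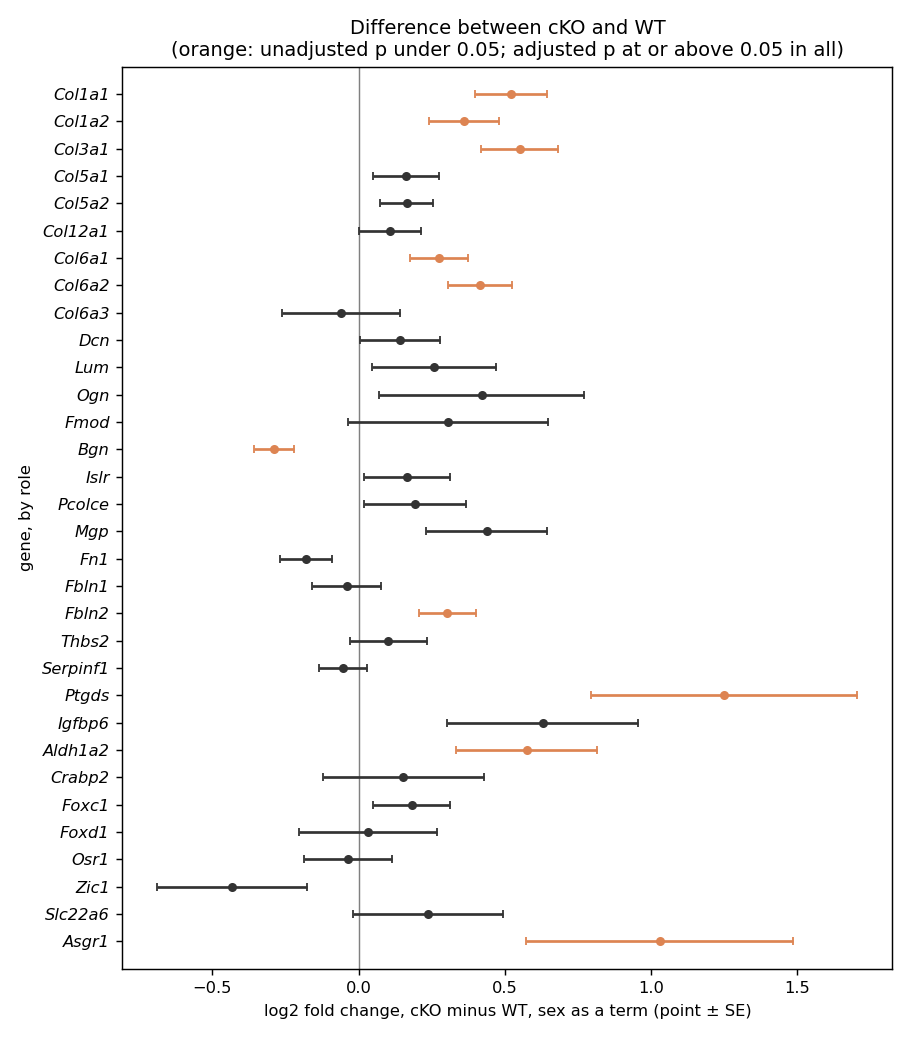
Log2 fold change of each of the 32 genes between cKO and WT (x axis, point ± SE, limma-trend with sex as a term), with the genes ordered by role on the y axis. Points for 25 genes lie above 0, the 10 orange ones had an unadjusted p under 0.05, and none passed after adjustment.

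Fibrillar collagens form the rope-like fibres of the meninges, with type I built from the products of Col1a1 and Col1a2 and type III from Col3a1. Of the 6 genes in this group, all with a fold change above 0, none passed and 3 were higher at an unadjusted p under 0.05 (4.94% of all genes), with a median of 0.26. Col1a1 (ENSMUSG00000001506, chromosome 11, 94827049 to 94843868 in GRCm39) was at 2112, 1836, 1688 and 1968 normalized counts in cKO replicates 1 to 4 and at 1139.8, 1250.5, 1816, 1412 and 1505 in WT replicates 1 to 5. WT replicate 3 was the only WT library that reached into the cKO range. The cKO mean was 1901 ± 181 (SD, n = 4) against a WT mean of 1425 ± 260.5 (SD, n = 5), a log2 fold change of 0.52 ± 0.123 (SE, limma adjusted p = 0.129).

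Col3a1 (chromosome 1, 45350697 to 45388866) was at 1847, 1957, 1491 and 1826 normalized counts in cKO and at 989, 1393, 2004, 1399 and 1516 in WT. Its highest and its lowest library were both WT, replicate 3 and replicate 1, so the groups overlapped. The fold change on the log2 scale was 0.55 ± 0.132 (SE, limma adjusted p = 0.133). Col1a2 (chromosome 6, 4504813 to 4541544) was at 2489, 2141, 2039 and 2397 in cKO and at 1494, 1817, 2422, 1862 and 1852 in WT. Here too WT replicate 3 lay among the cKO libraries and WT replicate 1 was lowest, with a log2 fold change of 0.36 ± 0.119 (SE, limma adjusted p = 0.272). Without WT replicate 3, Col1a1 (0.58, adjusted p = 0.0269) and Col3a1 (0.62, adjusted p = 0.0114) passed. Without WT replicate 1 the log2 fold changes were 0.31 for Col1a1, 0.33 for Col3a1 and 0.12 for Col1a2, and without cKO replicate 2 they were 0.75, 0.79 and 0.62. Over the 21 alternatives the adjusted p of Col1a1 ran from 0.0269 to 0.399 and that of Col3a1 from 0.0114 to 0.410.

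Col5a1 and Col5a2 encode chains of type V collagen, which sets the diameter of type I fibrils, and Col12a1 encodes a collagen that sits on the fibril surface. Col5a1 was at 754 to 1098 normalized counts in cKO and 589 to 822 in WT, with cKO replicate 1 well above the other 3 cKO libraries, which lay between 754 and 800.1. Col5a2 was at 668 to 767 in cKO and 571 to 752 in WT. Col12a1 was at 445 to 589.65 and 438 to 544. The log2 fold changes of these genes were 0.16, 0.17 and 0.11, all with overlapping groups.

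The promoters of Col1a2, Col3a1 and Bgn are shown because Col1a2 and Col3a1 were among the genes higher in cKO at an unadjusted p under 0.05 and Bgn was the only gene lower at that level. These are the 250 bases before the start of transcription, 5′ to 3′ on the plus strand, from RefSeq in GRCm38.p6, at chr6:4505368-4505617, chr1:45311288-45311537 and chrX:73483351-73483600, with capitals for the CCAAT box and for the core promoter element read as TATAAA, searched on both strands.
Col1a2: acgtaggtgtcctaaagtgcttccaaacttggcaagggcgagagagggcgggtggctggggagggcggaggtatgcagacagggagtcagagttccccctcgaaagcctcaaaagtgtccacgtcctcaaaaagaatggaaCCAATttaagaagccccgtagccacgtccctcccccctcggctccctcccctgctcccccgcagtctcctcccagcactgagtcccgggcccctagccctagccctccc
Col3a1: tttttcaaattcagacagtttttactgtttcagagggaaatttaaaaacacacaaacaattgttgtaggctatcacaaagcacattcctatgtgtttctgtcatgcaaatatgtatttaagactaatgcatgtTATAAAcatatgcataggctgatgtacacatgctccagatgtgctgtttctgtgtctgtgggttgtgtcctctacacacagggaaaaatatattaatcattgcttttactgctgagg
Bgn: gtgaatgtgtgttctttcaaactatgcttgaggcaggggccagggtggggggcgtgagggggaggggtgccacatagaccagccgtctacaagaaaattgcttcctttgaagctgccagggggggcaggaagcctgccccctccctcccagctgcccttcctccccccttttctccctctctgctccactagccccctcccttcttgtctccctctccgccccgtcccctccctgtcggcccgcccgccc
The letters CCAAT stand 109 to 105 bases before the start in Col1a2 and TATAAA 117 to 112 bases before it in Col3a1, and neither is in the Bgn window. The 23 genes of the list with an entry have 26 promoters there. Of these 26, 10 (38.5%) held CCAAT or its reverse complement ATTGG in a window of this length, against 33.8% of all 32851 promoters, and 4 (15.4%) held TATAAA or TTTATA, against 12.4%. These are matches of letters and not shown to be bound.

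Collagen VI forms a beaded network next to basement membranes from the products of Col6a1, Col6a2 and Col6a3. Col6a2 (ENSMUSG00000020241, chromosome 10, 76431595 to 76459464) was the only gene of the 32 with every cKO library above every WT library (2.86% of all genes). It was at 1001, 825, 819 and 859.95 normalized counts in cKO and at 638, 591, 781, 558 and 667 in WT, with a log2 fold change of 0.42 ± 0.109 (SE, limma adjusted p = 0.163). It passed without the sex term (adjusted p = 0.0282, when 0.329% of all genes passed higher), with DESeq2 on the recovered reads (adjusted p = 0.0235) and without WT replicate 3 (adjusted p = 0.0489, when 0.123% of all genes passed higher), and its adjusted p ran from 0.0235 to 0.471 over the 21 alternatives.

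Col6a1 was at 1795, 1633, 1600.3 and 1918 normalized counts in cKO and at 1399, 1476, 1607, 1146 and 1426 in WT. Only WT replicate 3 lay above the lowest cKO library, with a log2 fold change of 0.28 ± 0.0995 (SE, limma adjusted p = 0.315). Col6a3 gave a different picture from its partner chains, at 245 to 376 in cKO and 215 to 431 in WT with a log2 fold change of -0.06 ± 0.201 (SE). Its highest library was WT replicate 3.

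**Figure D2:**
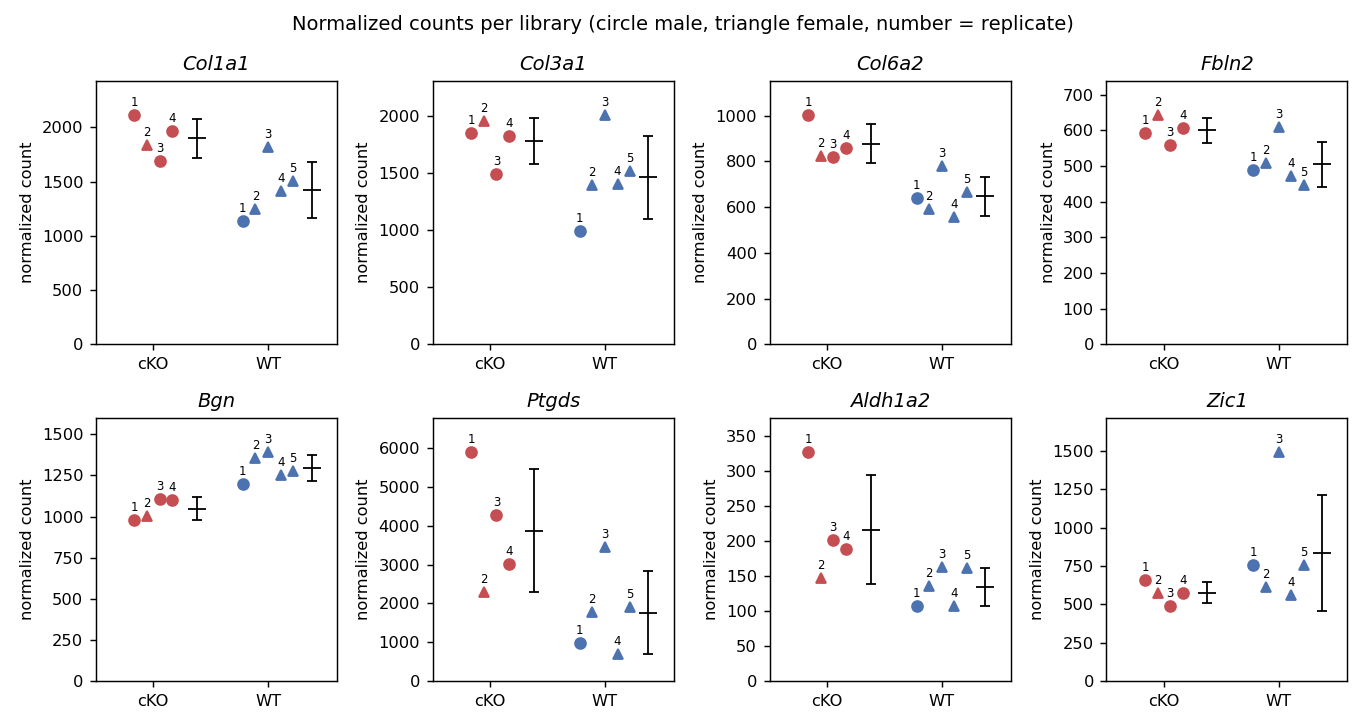
Normalized counts of 8 genes in each library (y axis), by genotype (x axis), with circles for males, triangles for females, the replicate number above each point, and the mean ± SD of each group in black. The groups are apart for Col6a2 and Bgn, WT replicate 3 lies among or above the cKO libraries for Col1a1, Col3a1 and Fbln2, and it stands at 1492 for Zic1.

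Small leucine-rich proteins bind collagen fibrils and regulate their assembly. Bgn (biglycan, ENSMUSG00000031375, chromosome X, 72527207 to 72539539) was 1 of the 7 genes of the list with a fold change below 0. It was at 979, 1002, 1109.75 and 1103 normalized counts in cKO and at 1201, 1354, 1393, 1251 and 1277 in WT, the only gene of the 32 with every cKO library below every WT library (3.72% of all genes). Mean levels were 1049 ± 67.6 for cKO (SD, n = 4) against 1295 ± 77.8 for WT (SD, n = 5), a log2 fold change of -0.29 ± 0.0681 (SE, limma adjusted p = 0.128). Bgn passed without the sex term (adjusted p = 0.0177, when 0.939% of all genes passed lower) and with DESeq2 (adjusted p = 0.0197), and its adjusted p ran from 0.0177 to 0.907 over the 21 alternatives. The fold change was -0.40 in females only (1 cKO library against 4 WT) and -0.18 in males only (3 cKO libraries against 1 WT).

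Dcn (decorin), the closest relative of Bgn in function, was at 1839.6, 1484, 1731 and 1631 normalized counts in cKO and at 1294, 1565, 2114, 1451 and 1403 in WT. Its log2 fold change was 0.14 ± 0.135 (SE), and WT libraries were both highest and lowest. Fmod (fibromodulin) and Ogn (osteoglycin) varied most in this group. Fmod was at 401, 140.03, 309.6 and 237 in cKO and at 144, 215, 313, 116 and 166 in WT, and Ogn at 211, 104, 134 and 117 in cKO and at 57.8, 187, 192, 108 and 104 in WT. For both genes cKO replicate 1 was highest and cKO replicate 2 lowest among the cKO libraries, and the log2 fold changes were 0.31 ± 0.342 and 0.42 ± 0.351 (SE). In females only the fold changes of Dcn (-0.12), Fmod (-0.44) and Ogn (-0.45) were below 0. Lum (lumican) was at 133 to 208 in cKO and 95.4 to 178 in WT, and Islr, an immunoglobulin and leucine-rich repeat protein of mesenchymal cells, at 309.6 to 429 and 289 to 416. In this group 5 of 6 fold changes were above 0 and none passed.

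Of the other secreted matrix proteins, Fbln2 (fibulin 2), a protein of basement membranes and elastic fibres, had the lowest p. It was at 593, 642, 558 and 606 normalized counts in cKO and at 489, 508, 610.25, 471 and 447 in WT, with WT replicate 3 the only WT library in the cKO range. Mean levels were 599.9 ± 34.8 for cKO (SD, n = 4) against 505 ± 62.9 for WT (SD, n = 5), a log2 fold change of 0.30 ± 0.097 (SE, limma adjusted p = 0.256). Fbln1 (fibulin 1) was at 511 to 631 in cKO and 452 to 666 in WT, with a log2 fold change of -0.04 ± 0.118 (SE).

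Mgp (matrix Gla protein), an inhibitor of calcification, was close among the cKO libraries, at 163 to 177 normalized counts, and wide among WT, at 95.7 to 212. Pcolce, which speeds the trimming of procollagen, was at 146 to 221 in cKO and 139.6 to 246 in WT. Thbs2 (thrombospondin 2) was at 218 to 263 and 175 to 263. Fn1 (fibronectin), which vessel cells also make, was at 4247 to 5769 in cKO and 4532 to 5819 in WT. Its log2 fold change was -0.18 ± 0.0883 (SE), with overlapping groups.

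Ptgds encodes prostaglandin D synthase, a secreted product of the leptomeninges that choroid plexus and oligodendrocytes also make. Ptgds (ENSMUSG00000015090, chromosome 2, 25356720 to 25360058) had the widest range of the list by ratio, 8.43-fold from its lowest to its highest library. It was at 5899, 2284, 4286 and 3016 normalized counts in cKO and at 973, 1769, 3456, 699.8 and 1898 in WT. Each cKO library was above 4 of the 5 WT libraries, and WT replicate 3 was above 2 cKO libraries. Mean levels were 3871 ± 1585 for cKO (SD, n = 4) against 1759 ± 1077 for WT (SD, n = 5), a log2 fold change of 1.25 ± 0.455 (SE, limma adjusted p = 0.319). It was 0.44 without WT replicate 1 and 2.12 without cKO replicate 2.

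The choroid plexus gene Ttr was at 21539, 2741, 211 and 31055 normalized counts in cKO and at 258, 41329, 9170.45, 23638 and 2336 in WT. The library with the second highest Ptgds, cKO replicate 3, had the lowest Ttr, and the library with the highest Ttr, WT replicate 2, had 1769 of Ptgds. In other libraries the genes went together. cKO replicate 1, highest in Ptgds at 5899, had 21539 of Ttr, and WT replicate 1 was low in both, at 973 of Ptgds and 258 of Ttr. The 12 oligodendrocyte markers summed to 22687 to 34692 in cKO and 22275 to 33162 in WT. The part of either cell type in the Ptgds values was not tested.

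Serpinf1 encodes the secreted pigment epithelium-derived factor and was at 619 to 873 normalized counts in cKO and 738 to 882 in WT, with a log2 fold change of -0.05 ± 0.0825 (SE). Igfbp6, a binding protein for insulin-like growth factors, was at 70.6, 41.1, 53.2 and 28.3 in cKO and at 24.9, 24.9, 47.9, 33.1 and 24.7 in WT. Its highest cKO and WT libraries were again replicate 1 and replicate 3, and the log2 fold change was 0.63 ± 0.328 (SE).

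Aldh1a2 makes retinoic acid, for which the meninges are a known source, and Crabp2 carries it within the cell. Aldh1a2 was at 327, 147, 201 and 189 normalized counts in cKO and at 107, 135, 162, 107 and 161 in WT. cKO replicate 1 stood above all others and cKO replicate 2 lay within the WT range, with a log2 fold change of 0.57 ± 0.242 (SE, limma adjusted p = 0.397). It was 0.07 without WT replicate 1 and 1.11 without cKO replicate 2. Crabp2 was at 49.7, 20.6, 34.8 and 36.8 in cKO and at 22.9, 32.2, 28.4, 25.1 and 26.9 in WT, so the lowest of all 9 libraries was cKO replicate 2, and the log2 fold change of 0.15 ± 0.276 (SE) was -0.43 in females only.

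Foxc1 and Foxd1 are forkhead factors of head mesenchyme, Foxc1 being required for the meninges to form, and Osr1 and Zic1 are zinc finger factors. As a group these had a median log2 fold change of -0.0022, with 2 of 4 above 0. Foxc1 was at 233 to 296 normalized counts in cKO and 209 to 317 in WT, Foxd1 at 40.55 to 83.5 and 41.2 to 59.7, and Osr1 at 121 to 176 and 123.5 to 164. Zic1 was at 660.25, 573, 491.5 and 572 in cKO and at 753, 615, 1492, 563 and 754 in WT. WT replicate 3 stood far above the other libraries of either group, with a log2 fold change of -0.43 ± 0.256 (SE, limma adjusted p = 0.547). The meningeal transporter gene Slc22a6, an organic anion transporter, was at 256, 124, 151 and 119 in cKO and at 123, 124, 170.2, 89.4 and 109.7 in WT. Asgr1, known as a subunit of the liver asialoglycoprotein receptor, was the lowest gene of the list at 33.8, 26.4, 18.4 and 12.3 in cKO and 12.0, 5.19, 19.6, 11.0 and 7.53 in WT, with a log2 fold change of 1.03 ± 0.456 (SE, limma adjusted p = 0.417).

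The libraries of 1 group differed among themselves more for these genes than for most genes. The residual standard deviation after sex and genotype had a median of 0.237 log2 units over the 32 genes and of 0.104 over all genes tested, at a median level of 434 and 576 normalized counts, and 31 of the 32 genes were above the median of all genes. Ptgds was the widest at 0.845, followed by Asgr1 (0.684), Ogn (0.623) and Fmod (0.616), while Bgn was the narrowest at 0.0955. The ratio of the highest to the lowest library had a median of 1.82 and was above 2 for 14 genes and above 3 for 6.

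**Figure D3:**
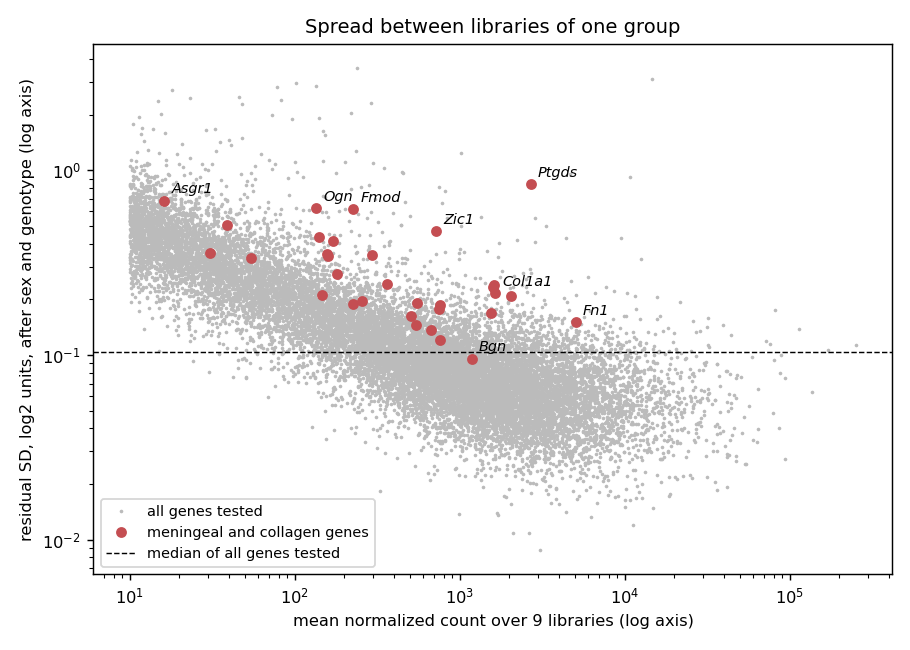
Residual standard deviation of each gene in log2 units after sex and genotype (y axis, log) against its mean normalized count over 9 libraries (x axis, log), with all 17036 genes tested in grey and the 32 genes in red. The dashed line is the median of all genes, 0.104, which 31 of the 32 genes exceed.

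The same libraries were high or low across most of the list. cKO replicate 1 was the highest of the 9 libraries for 16 of the 32 genes and WT replicate 3 for 10, whereas WT replicate 1 and WT replicate 4 were the lowest for 10 each. No such ranks were taken over all genes tested, so these counts have no background. The mean deviation from each gene's own mean was 0.39, 0.0075, 0.08 and 0.06 on the log2 scale in cKO replicates 1 to 4, and -0.25, -0.09, 0.27, -0.31 and -0.17 in WT replicates 1 to 5. The group means of this measure were 0.13 ± 0.173 for cKO (SD, n = 4) against -0.11 ± 0.227 for WT (SD, n = 5), and their difference of 0.24 was close to the spread between libraries of 1 group, and the range over the 9 libraries was 0.70. The 2 highest libraries, a cKO male and a WT female, are of opposite genotype and sex. How much membrane stayed on each hippocampus is not recorded in the labels, and its part in these levels was not tested.

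**Figure D4:**
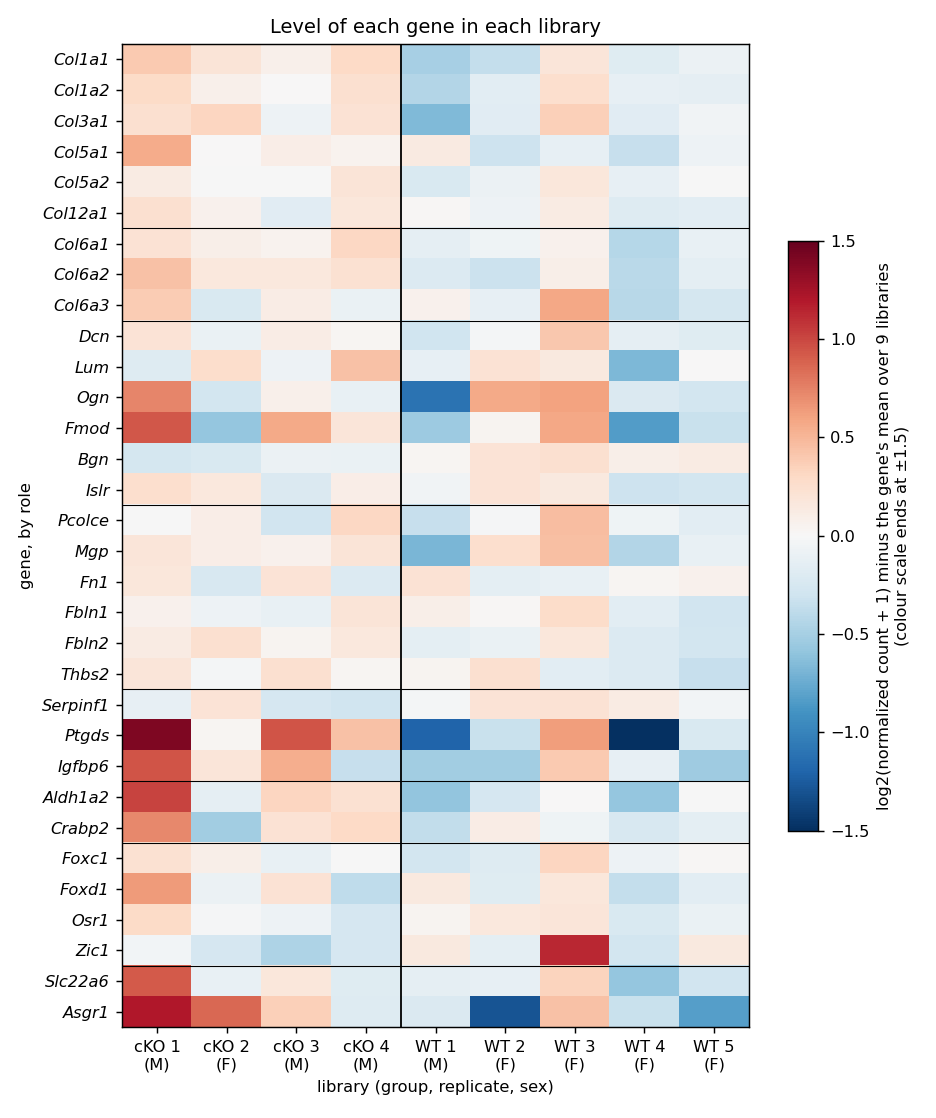
Deviation of each of the 32 genes (rows, by role) from its own mean over the 9 libraries (columns, by group, replicate and sex), as log2(normalized count + 1), with red above and blue below the mean. cKO replicate 1 and WT replicate 3 are mostly red, WT replicates 1, 4 and 5 mostly blue, and Bgn is blue in the cKO libraries and red in the WT libraries.

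A further 40 genes linked to meningeal fibroblasts were examined beside these, of which 38 were tested. Many are made by other brain cells too, such as Pdgfra by oligodendrocyte precursors and Nid1 by vessel cells. None passed, with 5 higher and 5 lower at an unadjusted p under 0.05 (4.94% and 6.4% of all genes) and a median log2 fold change of 0.07. By library their mean deviation was again highest in cKO replicate 1 (0.27) and WT replicate 3 (0.20) and lowest in WT replicate 1 (-0.26). Gjb2, a connexin of meningeal cells, was at 294 ± 57.7 normalized counts in cKO and 197 ± 30.1 in WT (SD, limma adjusted p = 0.168), and Alpl, the tissue-nonspecific alkaline phosphatase, which capillaries also carry, at 118 ± 16.9 and 193 ± 25.5 (SD, limma adjusted p = 0.136).

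Markers of the choroid plexus, ependyma and vessel wall were also followed over the libraries. The 15 choroid plexus genes, all tested and none at 0, summed to 925 to 35059 normalized counts in cKO and 939 to 46325 in WT, with WT replicate 2 highest and cKO replicate 3 lowest. Of 10 ependymal genes 9 were tested, and by mean deviation these were highest in WT replicate 3 (0.56) and lowest in cKO replicate 3 (-0.53), with cKO replicate 1 at -0.05. The 14 pericyte and smooth muscle genes were highest in WT replicate 3 (0.37) but below their mean in cKO replicate 1 (-0.10), and summed to 14074 to 15294 in cKO and 15269 to 17425 in WT. A large part of those sums was Rgs5, with a mean of 6865 in cKO and 8132 in WT. None of the 14 passed, with 3 higher and 2 lower at an unadjusted p under 0.05 (4.94% and 6.4% of all genes). The smooth muscle genes Acta2 (0.73) and Myh11 (0.53) had log2 fold changes above 0, and Rgs5 (-0.25) and Abcc9 (-0.35) below 0. Of 12 endothelial genes, 1 passed lower (0.223% of all genes), Flt1, and the median log2 fold change was -0.07. WT replicate 3 was highest for the endothelial genes too (0.19), whereas cKO replicate 1 was below their mean (-0.14). WT replicate 3 was therefore the highest library for the ependymal, pericyte and endothelial lists and also stood high in the 32 genes, and the part of those cell types in its values was not tested.

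**Figure D5:**
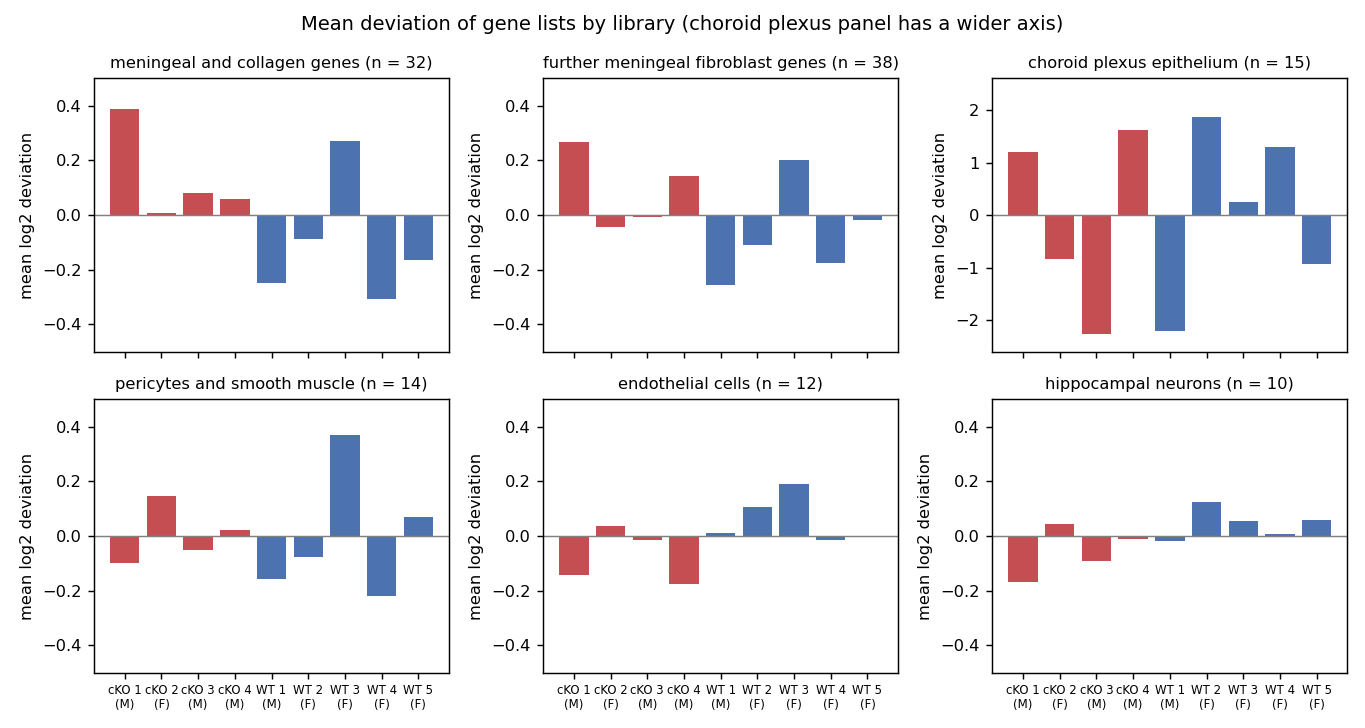
Mean deviation of 6 gene lists in each library (bars, log2 units from each gene's own mean over 9 libraries), with cKO in red and WT in blue. The 32 genes and the 38 further meningeal genes are both highest in cKO replicate 1 and WT replicate 3, while the choroid plexus genes, on a wider axis, are highest in WT replicate 2 and lowest in cKO replicate 3.

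Collagens need dedicated enzymes for hydroxylation, folding, trimming and cross-linking. Of 30 such genes tested, none passed, with 3 higher and 5 lower at an unadjusted p under 0.05 (4.94% and 6.4% of all genes) and a median log2 fold change of 0.02. P4ha1, a subunit of prolyl 4-hydroxylase, was at 1227 ± 74.8 normalized counts in cKO and 1477 ± 77.0 in WT (SD, limma adjusted p = 0.163), and Plod1, a lysyl hydroxylase, at 1082 ± 82.1 and 979 ± 56.6 (SD, limma adjusted p = 0.305). Of 31 other collagen chains, 30 were tested and none passed, with 4 higher and 3 lower at an unadjusted p under 0.05 (the same shares of all genes) and a median of 0.12. Among these were the basement membrane chain gene Col4a6 (159.5 ± 8.67 in cKO and 118 ± 14.0 in WT, limma adjusted p = 0.161) and Col9a2 (376 ± 48.9 and 279 ± 27.4, limma adjusted p = 0.161). Of 24 genes of matrix receptors and TGF-beta signals none passed, with 3 higher and 1 lower at that level and a median of 0.0041.

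Sex was compared in the same fit. None of the 32 genes passed between females and males (0.0528% of all genes), and 4 had an unadjusted p under 0.05 (6.73% of all genes). Col3a1 (0.43) and Serpinf1 (0.29) were the 2 with higher values in females and Col5a1 (-0.29) and Fn1 (-0.28) the 2 with lower values, as log2 differences. No gene passed the test of whether the genotype difference depended on sex (0.00587% of all genes), with 6 at an unadjusted p under 0.05 (7.9% of all genes), namely Ogn, Fmod, Crabp2, Aldh1a2, Col1a2 and Dcn. All 6 had a lower log2 fold change in females than in males, and in females only it was below 0 for Ogn, Fmod, Crabp2 and Dcn. The lowest limma adjusted p was 0.570. With a single cKO female and a single WT male, the level of these 2 libraries cannot be told apart from a difference between the sexes.

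Between the 32 genes, levels were compared per kb of exon, with exon lengths from GENCODE M21. Ptgds was highest at 1636 normalized counts per kb, followed by Fn1 (431), Col6a1 (355), Serpinf1 (324), Dcn (276) and Col1a1 (249). The lowest were Asgr1 (10.2) and Foxd1 (10.7).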

How the data were processed

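Hippocampal total RNA went into directional (strand-keeping) libraries, per the labels' protocols. The submitters' processing notes name STAR 2.7.10b, cutadapt 4.4, FastQC 0.12.1, DESeq2 1.41.8 and the GRCm39 build. The labels leave out the read counter, the annotation and the strand setting. Whether overlapping genes on opposite strands were counted apart is therefore not known. The signal deposited by the authors is a normalized count, the reads of a gene over the size factor of its library. A read is worth 0.943 to 1.08 in these units, and division by that value gave whole numbers (within 0.1) for 100.0% of values above 0. For cKO replicate 1 and WT replicates 1 and 4 it is nearly 1, so this is a weak check of them. Groups and sex came from the labels, and replicate numbers are only names.

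The test was limma-trend (limma 3.58.1, R 4.3.3), with genotype and sex in the model and values as log2(normalized count + 1), over 17036 genes with a mean of at least 10. This understates changes of low genes. edgeR 4.0.16 and DESeq2 1.42.0 ran on recovered reads. Other alternatives were pseudocounts, filters, TMM scaling, robust limma, no sex term, each sex alone, each library left out and, chosen after seeing the data, 2 libraries left out together. Named are all 32 genes, Slc38a3 and up to 4 genes of smallest p per other list, of which the text gives a selection, plus Ttr, Prox1 and Tcf7l2 as tissue checks, chosen after their values were seen. All 245 list symbols matched the table. The genes and lists were chosen with earlier results of these data known. On simulated counts for cKO against WT over 17036 genes, 52% of genes changed 1.25-fold, 62% changed 1.5-fold and 86% changed 2-fold were called, with 11 false among 158 calls. The changed genes were drawn at random from all genes and varied independently of each other. The 32 genes vary more (median residual SD 0.237 against 0.104), so these percentages do not give the chance of calling a change in them. Gene coordinates are those of the deposited table; promoters are from RefSeq (GRCm38.p6), with entries for 23 of 32 genes. Python 3.11.15, pandas 2.3.3, numpy 2.4.6 and matplotlib 3.10.9 were used.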

Additional observations from a re-analysis of the deposited data

Results flagged for a closer look

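In groups of 4 or 5 libraries, a highest or lowest value was singled out where its gap to the next was large against the range of the group (Dixon's 95% critical value), which chance gives in about 1 of 20 groups. Of 64 groups examined, 2 held such a library. Col5a1 stood at 1098 normalized counts in cKO replicate 1, with the other 3 cKO libraries at 754 to 800.1. Zic1 stood at 1492 in WT replicate 3, with the other 4 WT libraries at 563 to 754.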

How the results depend on the processing

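Over the 32 genes and 21 alternatives, 640 of 669 fold changes kept their direction and their side of the threshold, 8 passed where they had not, and 21, in 9 genes, turned. Foxd1 had an adjusted p in 20 alternatives and Igfbp6, Crabp2 and Asgr1 in 19 each. Some of their fits therefore had a direction but no adjusted p, and counted as not passing. The counts of 0 genes passing in each direction held under other pseudocounts, filters, TMM scaling, robust limma and edgeR. They became 1 higher and 1 lower with DESeq2 and without the sex term, and 1 higher without cKO replicate 1 and WT replicate 3. The number lower at an unadjusted p under 0.05, 1 in the report (6.4% of all genes), was 2 with no filter on low values. It was 2 with DESeq2 (5.49%), 3 without the sex term (8.61%) and 3 without cKO replicate 1 and WT replicate 3 (6.08%). Leaving out 1 library gave 0 to 3 passing higher and 0 to 0 passing lower, with a median log2 fold change of 0.07 to 0.33. The 3 came without WT replicate 3, where 0.123% of all genes passed higher. At an unadjusted p under 0.05 there were 2 to 13 higher and 0 to 2 lower. For sex, leaving out 1 library gave 0 to 0 passing, with 1 to 5 higher and 0 to 4 lower in females at an unadjusted p under 0.05. No share of all genes was taken with no filter or for the other libraries left out, so those counts have no background. With 1 library left out Slc38a3 ran from -3.35 to -2.66.

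Fold changes that turned were Col6a3, at 0.073 without the sex term and 0.063 in males only, Fbln1, at 0.030 without the sex term and 0.012 without cKO replicate 1 and WT replicate 3, and Foxd1, at -0.03 without those 2 libraries. In females only Dcn was at -0.12, Ogn at -0.45, Fmod at -0.44, Serpinf1 at 0.076 and Crabp2 at -0.43. With 1 library left out the fold change ran from -0.18 to 0.063 for Col6a3, -0.12 to 0.42 for Dcn, -0.45 to 1.35 for Ogn, -0.44 to 1.10 for Fmod, -0.082 to 0.011 for Fbln1, -0.19 to 0.076 for Serpinf1, -0.43 to 0.77 for Crabp2, -0.077 to 0.16 for Foxd1 and -0.10 to 0.020 for Osr1. Females only and the fit without WT replicate 1 rest on the same libraries for the genotype difference, and the cause of each turn was not tested. Genes with few reads, such as Asgr1, Crabp2 and Igfbp6, carry the largest counting error. No paired analysis was possible because the labels do not say which libraries form pairs. The sample titles carry numbers whose meaning is not given, and the replicate numbers used here only follow the list of samples.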
